A study of Mus musculus with 16 samples.

Results

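Macrophages grown from the bone marrow of Sirt3 K223R mice were compared after 24 hours with IL-4 and without it. Sirt3 is a deacetylase of the mitochondrial matrix, and in K223R a lysine of the protein is replaced by arginine. The series sets these cells beside wild-type macrophages in 16 libraries, 4 for each genotype and treatment, and 8 of the 16 libraries are those of Sirt3 K223R described here. Genes with a value of at least 1 in at least 4 of these 8 libraries were kept, which gave 9671 of the 10920 genes in the files.

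Both Sirt3 K223R groups came from C57BL/6 mice of 8 weeks and carry the same allele, so the comparison is between treatments within the mutant. The labels give neither the zygosity nor how the allele was made. Marrow cells of either group spent 7 days in M-CSF (20 ng/ml), which turns them into macrophages. IL-4 (20 ng/ml) followed for 24 hours in 4 libraries and was left out in the other 4. The wild-type groups used for comparison had the same strain, age, culture and treatment. The labels do not say whether the 4 replicates of a group were separate mice, so p-values measure the spread between these libraries, which may in part be technical.

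IL-4 is a cytokine of type 2 immunity. Its receptor activates JAK kinases and the transcription factor STAT6, which moves to the nucleus and binds palindromic DNA sites near its target genes. In macrophages this gives the state called alternative activation, known from helminth infection and tissue repair and marked by arginase, chitinase-like proteins and the mannose receptor. Sirt3 removes acetyl groups from mitochondrial enzymes of fuel oxidation, and the lysine that K223R replaces is known as a site to which SUMO is attached.

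The values are taken as FPKM, a level scaled to transcript length and sequencing depth, and changes are given as differences of log2(FPKM + 1), written below as log2 change. The summed FPKM was 288143 to 305607 per library. Sirt3 itself, whose mRNA level does not check a change of 1 amino acid, stood at 1.47, 1.598, 1.73 and 1.43 FPKM in the untreated and 1.42, 1.18, 1.36 and 1.32 in the IL-4 libraries. The groups did not overlap (2-sided exact permutation p = 0.0286, the smallest that 4 against 4 libraries allow), yet limma did not call it (log2 change -0.14, adjusted p = 0.114), and with median-ratio scaling the exact p was 0.171. IL-4 replicate 2 stood apart from its group. Its median correlation with the other 3 was 0.980 against 0.990 to 0.991 for them, and its share of mitochondrially encoded mRNA was 3.23% of summed FPKM against 5.37% to 5.87%. Some results that depend on it are given with and without it, but not all.

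IL-4 changed a large part of the transcriptome of Sirt3 K223R macrophages mostly by small amounts. limma called 1213 genes higher (12.5% of those tested) and 2522 lower (26.1%) at an adjusted p under 0.05. The median log2 change was 0.45 among the called rises and -0.37 among the called falls. The balance of calls depended on the scaling, since rises were 32.5% of the calls with the values as deposited, 53.1% with median-ratio scaling (1792 higher and 1580 lower) and 45.5% with quantile normalization (1520 higher and 1818 lower). The median log2 change of all genes was -0.09, 0.00 and -0.02 under these scalings, and list medians below are to be read against -0.09. Counts of list members called are likewise to be read against 12.5% higher and 26.1% lower.

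There were 218 rises of at least 2-fold (2.25% of the genes tested) and 186 falls (1.92%), but with a pseudocount of 0.1 in place of 1 there were 279 rises and 315 falls. With the pseudocount of 1, in 215 and 185 of them the 4 untreated and the 4 IL-4 libraries did not overlap, where 12.9% and 27.9% of all genes were separated upwards and downwards. Called genes of this size are mostly separated by their choice, so these counts are no further support. Of the rises, 154 lay between log2 1 and 2, 45 between 2 and 3, 14 between 3 and 5 and 5 above 5. Of the falls, 172 lay between 1 and 2 and 13 between 2 and 3, and the 1 fall beyond was of a gene model without a proper symbol. Among 124 genes with an untreated mean under 1 FPKM, which passed the filter through their IL-4 values, 53 rose by at least 2-fold. Of 409 genes above 100 FPKM, 4 rose and 12 fell by that much.

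**Figure D1:**
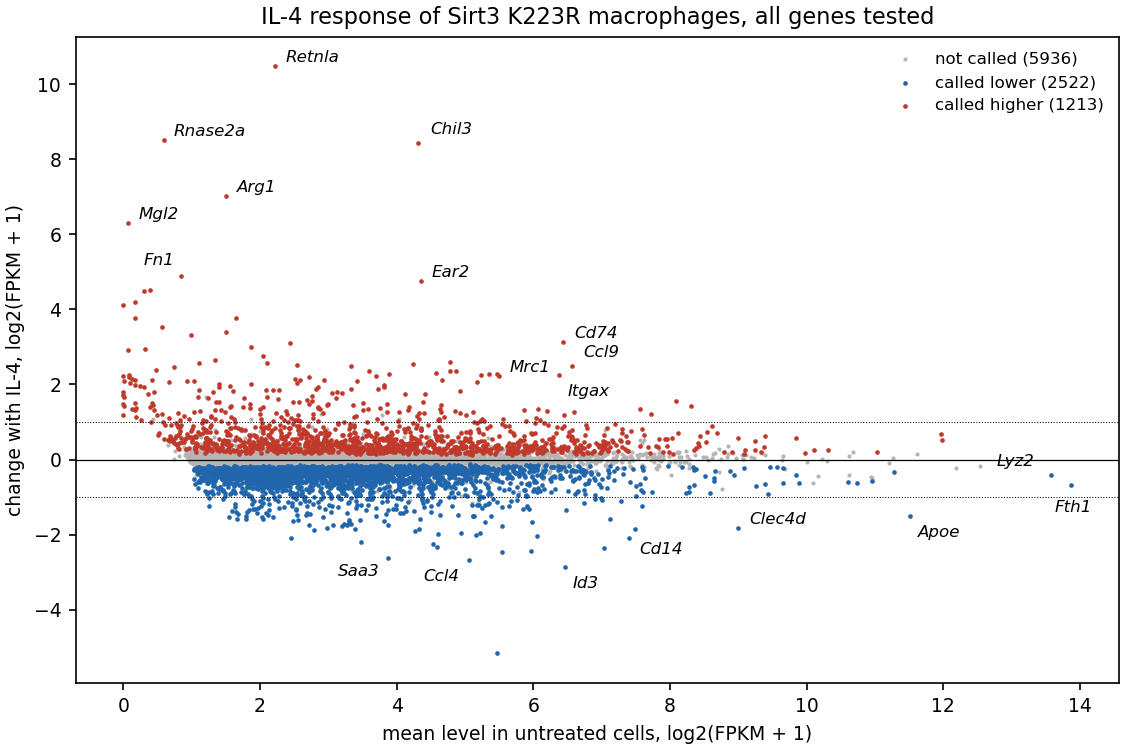
Change with IL-4 against the untreated mean level in Sirt3 K223R macrophages, both as log2(FPKM + 1), for the 9671 genes tested; dotted lines mark 2-fold. The largest rises, Retnla to Fn1, start from low levels except Chil3 (untreated mean 18.8 FPKM), and the lowest blue point is a gene model without a proper symbol.

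The largest rises were those of Retnla, Rnase2a, Chil3 and Arg1. Retnla, a secreted resistin-like protein of type 2 inflammation, stood at 3.73, 0.645, 9.41 and 0.838 FPKM in the untreated libraries and at 6049, 3832, 5997 and 4429 with IL-4. The ribonuclease Rnase2a, an eosinophil-type RNase made by alternatively activated macrophages, went from 0.502, 0.209, 1.31 and 0 to 745, 224, 758 and 596. In both genes the untreated libraries varied several-fold among themselves, IL-4 replicate 2 was the lowest of its group, and the groups lay far apart. Log2 changes were 10.48 (SE 0.53, adjusted p = 1.41e-06) for Retnla and 8.52 (SE 0.40, adjusted p = 9.73e-07) for Rnase2a.

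Chil3 and Chil4, chitinase-like proteins encoded side by side on chromosome 3, rose from very different starting levels. Chil3 was at 19.97, 13.6, 27.2 and 14.5 FPKM without and 6768, 6055, 6865 and 6845 with IL-4, which made it one of the most abundant mRNAs of the treated cells. Chil4 was at 0.00309, 0.00151, 0.00167 and 0 without and 15.1, 23.1, 13.9 and 14.7 with IL-4. Chil3 was even across the IL-4 libraries, while Chil4 was highest in IL-4 replicate 2, the library in which Chil3 was lowest. The division of reads between such similar sequences is not stated, which leaves the values of this pair, and of Rnase2a and its relative Ear2, uncertain. Ear2 went from 17.7, 18.5, 23.8 and 18.2 to 701, 323, 769.6 and 538 FPKM, again lowest in IL-4 replicate 2.

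Arg1, the arginase that splits arginine to ornithine and urea, was even in all IL-4 libraries. It stood at 1.36, 2.68, 2.48 and 0.860001 FPKM untreated and at 355, 361, 340.0 and 369 with IL-4, a log2 change of 7.03 (SE 0.20, adjusted p = 1.08e-07; GRCm38 chromosome 10, 24915221 to 24927484). Fn1, the matrix protein fibronectin, was less even, at 0.651, 1.05, 0.947 and 0.527 and 63.3, 32.3, 74.7 and 47.1 FPKM (log2 change 4.89, SE 0.23), and its lowest IL-4 value was that of replicate 2. The lectins Mgl2 and Mrc1, which bind galactose-type and mannose sugars, rose to 57.6–100.0 and 198–222 FPKM. Mgl2 had been at 0.173 or less in each untreated library, whereas Mrc1 had already been at 38.6–47.3.

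A second set of strong rises holds genes of less familiar or unrelated function. Apol7c, of the apolipoprotein L family, was at 0.118, 0.189, 0.108 and 0.0742 FPKM untreated and 24.7, 10.6, 27.02 and 20.1 with IL-4. Tmem26, a membrane protein, rose from 1.57–2.597 to 38.6–46.5, the lipase Lipn from 0.3102–0.732 to 12.5–19.5, and Gda, the guanine deaminase of purine breakdown, from 1.58–2.04 to 22.02–36.6. The largest rises were picked among genes whose groups do not overlap, so the separation of these 4 is no result. IL-4 replicate 2 was lowest for Apol7c, Lipn and Gda and not for Tmem26. Genes best known from the nervous system were among them too. Bex1 rose by log2 3.01 to 22.1, 39.3, 20.3 and 35.4 FPKM, the enkephalin precursor Penk by 2.75 to 24.9, 36.1, 21.99 and 25.1, and the secreted olfactomedin Olfm1 by 2.66 to 16.5, 11.9, 16.6 and 15.1. Bex1 and Penk were highest in IL-4 replicate 2, and Olfm1 was lowest there.

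**Figure D2:**
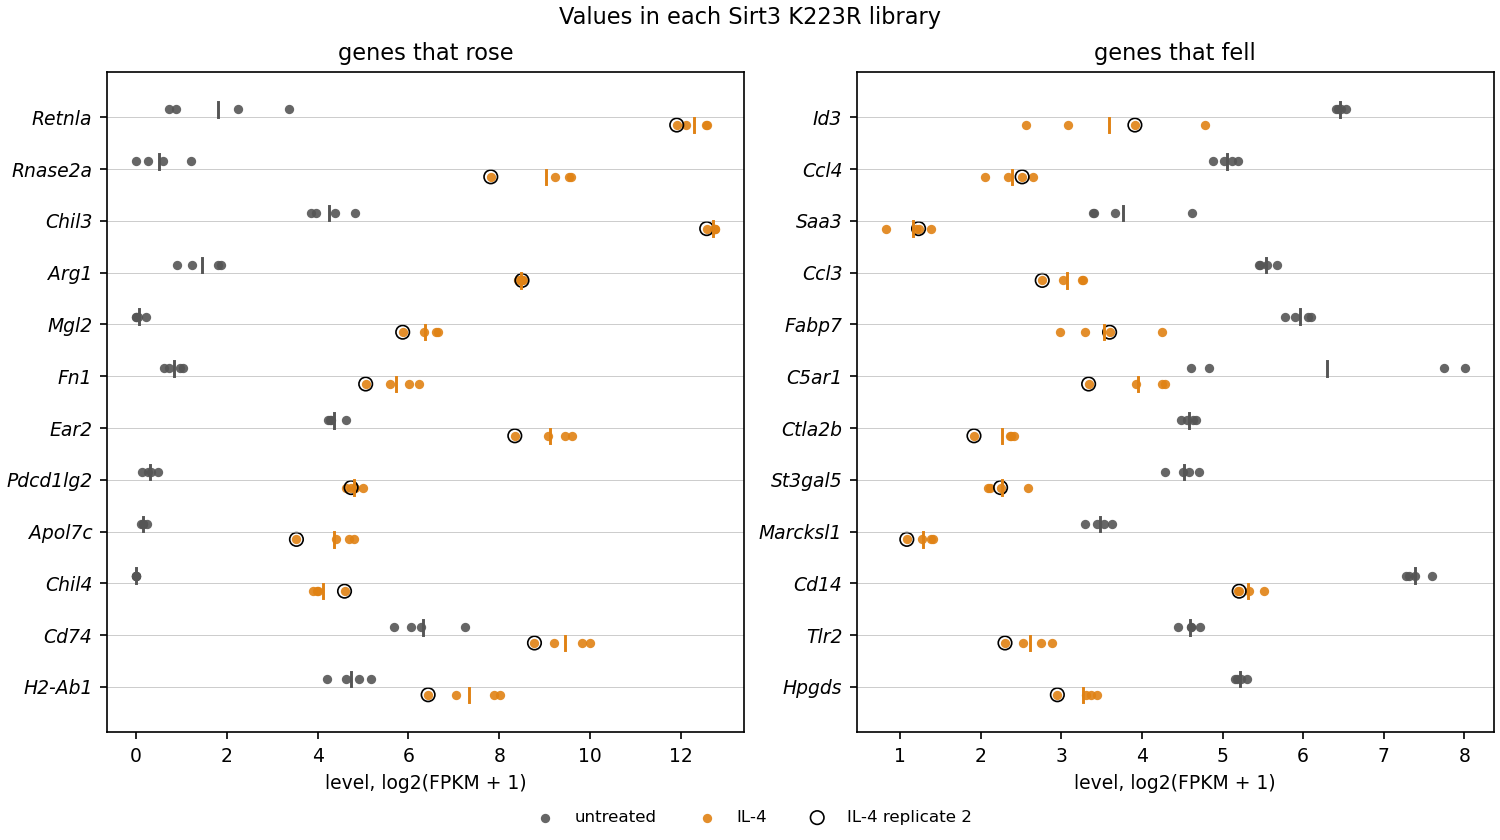
Level of 12 genes that rose and 12 that fell, as log2(FPKM + 1), in each of the 8 Sirt3 K223R libraries; short bars are group means and rings mark IL-4 replicate 2. The 24 genes were taken from those whose groups do not overlap, and the 4 untreated values of C5ar1 split into a low and a high pair.

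Promoter windows were read for the genes of large change, because STAT6 is known to bind the palindrome TTCNNNNGAA. RefSeq windows (GRCm38.p6, 250 bases before to 50 after the start) were matched by symbol for 7663 of the 9671 genes, 160 of the 218 rises and 142 of the 186 falls. The 5 sequences below are the 250 bases before the start, 5′ to 3′ along the gene, of 5 genes among the largest rises. They are shown for the palindrome, in capitals, or for its form with 3 free bases in Chil3 (TTCNNNGAA).
Retnla, chr16:48842359-48842608, plus strand: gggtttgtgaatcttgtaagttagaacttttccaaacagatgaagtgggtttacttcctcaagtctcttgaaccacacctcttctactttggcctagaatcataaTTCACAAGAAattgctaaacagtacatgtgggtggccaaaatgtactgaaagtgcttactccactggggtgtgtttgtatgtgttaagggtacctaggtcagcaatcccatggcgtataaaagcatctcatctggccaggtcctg
Pdcd1lg2, chr19:29410669-29410918, plus strand: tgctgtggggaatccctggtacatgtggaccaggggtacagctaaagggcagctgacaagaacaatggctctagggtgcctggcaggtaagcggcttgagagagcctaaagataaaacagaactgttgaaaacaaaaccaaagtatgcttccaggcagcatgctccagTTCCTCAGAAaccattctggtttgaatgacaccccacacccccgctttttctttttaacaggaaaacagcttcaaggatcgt
Apol7c, chr15:77533316-77533565, minus strand: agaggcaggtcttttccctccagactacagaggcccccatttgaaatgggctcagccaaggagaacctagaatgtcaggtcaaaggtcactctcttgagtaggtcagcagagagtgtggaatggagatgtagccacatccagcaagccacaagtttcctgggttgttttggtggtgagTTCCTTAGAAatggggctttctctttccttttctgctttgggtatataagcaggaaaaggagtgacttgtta
Tmem26, chr10:68723496-68723745, plus strand: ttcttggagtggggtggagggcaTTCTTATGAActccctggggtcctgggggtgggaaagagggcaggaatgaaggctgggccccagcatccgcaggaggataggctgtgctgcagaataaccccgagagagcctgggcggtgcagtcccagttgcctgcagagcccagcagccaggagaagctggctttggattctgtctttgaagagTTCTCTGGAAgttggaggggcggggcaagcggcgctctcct
Chil3, chr3:106167565-106167814, minus strand: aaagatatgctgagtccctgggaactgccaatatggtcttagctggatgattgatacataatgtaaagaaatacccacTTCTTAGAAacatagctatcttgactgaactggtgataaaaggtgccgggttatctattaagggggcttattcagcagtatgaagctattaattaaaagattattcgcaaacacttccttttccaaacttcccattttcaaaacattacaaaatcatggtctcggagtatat
The match in Retnla begins 145 bases before the start, that in Pdcd1lg2 82 and that in Apol7c 72 bases before it. Tmem26 has 2 matches, at 227 and 41 bases. The form with 3 free bases begins 172 bases before the start of Chil3 and 200 before that of its neighbour Chil4. The RefSeq start lies 57 bases from the deposited gene start for Retnla, 100 for Tmem26, and at the same base for Pdcd1lg2, Apol7c and Chil3. Over the rises of at least 4-fold, the 250 bases before the start hold the palindrome in 7 of 45 windows, and over such falls in 0 of 12. Rnase2a, Mgl2 and Ear2, among the largest rises, are not among the 7.

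Over all windows of 300 bases, on either strand, the STAT6 palindrome TTCNNNNGAA was present in 11.2% of the 160 windows of rising genes (18), in 2.82% of the 142 of falling genes (4) and in 5.23% of all 7663 (401). For the form with 3 free bases the shares were 8.12%, 6.34% and 6.79%. The AP-1 site TGANTCA was present in 11.2% of the windows of rises and 12.7% of those of falls, against 4.50% of all. The PU.1-type ETS core GAGGAAG was in 18.8% and 23.2% against 13.9%, and the TATA box TATAAA in 11.2% and 14.8% against 6.30%. In 15 windows matches of different motifs shared bases. A match is a string of letters and not a measured binding site, and no binding was measured in these cells.

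Genes of the IL-4 pathway itself moved in both directions. On a list of genes known from alternative activation, limma called 37 of the 42 tested higher and 4 lower, with a median log2 change of 2.13. The exceptions that fell were Sash1 (-1.20), the lipid-antigen molecule Cd1d1 (-0.48), Ndrg1 (-0.35) and Tgm2 (-0.28). The call of Tgm2 was lost with median-ratio scaling (adjusted p = 0.192) and without untreated replicate 2 or IL-4 replicate 4. This list was drawn up with results of these cells known. Of 38 genes of the receptor and JAK-STAT list, 10 rose and 7 fell around a median of 0.00. Socs1, the feedback inhibitor of JAK kinases, stood at 0.826, 1.42, 0.626 and 1.08 FPKM untreated and 18.5, 19.04, 19.5 and 16.8 with IL-4 (log2 change 3.31, adjusted p = 2.97e-07). Its relative Socs2 rose from 0.0587–0.193 to 1.18–2.17, Jak2 by log2 0.95 and the shared receptor chain Il2rg by 1.03. The alternative chain Il13ra1, which also binds IL-13, fell from 4.92, 5.54, 5.81 and 5.28 FPKM to 1.45, 1.02, 1.34 and 1.42 (log2 change -1.47). The change of Stat6 was small, at -0.20 (adjusted p = 0.0158), and with median-ratio scaling it was no longer called.

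Among transcription factors of macrophages 24 of 79 rose and 26 fell (median log2 change -0.04). Irf4, a factor of alternative activation, was at 0.335, 0.203, 0.325 and 0.145 FPKM untreated and 10.7, 5.59, 10.2 and 8.76 with IL-4, and Batf3 rose from 1.09–1.29 to 11.2–13.1. Nfil3, a repressor of the D-box genes of the clock, rose by log2 3.10 to 41.9–48.7 FPKM. Bhlhe40 and Bhlhe41, related repressors, moved apart. Bhlhe40 rose from 10.5–15.7 to 36.9–40.8 FPKM and Bhlhe41 fell from 12.4–14.5 to 3.07–5.68. Klf2, a factor that restrains inflammatory genes, was at 2.34, 2.32, 2.74 and 2.15 and 10.8, 9.03, 9.76 and 8.85 (log2 change 1.64, SE 0.08), and Maf fell with a log2 change of -1.09.

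The inhibitors of helix-loop-helix factors fell together. Id3 stood at 91.2, 83.8, 87.5 and 85.7 FPKM in the untreated libraries and at 26.5, 14.1, 4.903 and 7.497 with IL-4. Untreated values were even, and IL-4 values varied widely (log2 change -2.87, SE 0.40, adjusted p = 0.000528). All lay below the untreated ones, as the choice of the largest falls required. Id1 was at 5.03, 6.65, 4.45 and 7.46 and 1.08, 1.43, 0.528 and 0.477 (log2 change -1.89), and Id2 fell from 124–131 to 56.5–69.98 (-1.03). Smad6, an inhibitor of the BMP pathway, which is known to drive Id genes, went from 3.896, 4.13, 4.3004 and 5.64 to 0.743, 0.131, 0.157 and 0.224 FPKM. Both TGF-beta receptor chains fell, Tgfbr1 with a log2 change of -1.49 and Tgfbr2 with -0.57.

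Chemokines split into a rising and a falling set, with 7 of 15 higher and 5 lower. Among those that fell were the inflammatory chemokines Ccl4, at 31.5, 33.8, 28.6 and 35.6 FPKM without and 4.07, 4.71, 3.14 and 5.29 with IL-4, and Ccl3, at 46.1, 43.1, 42.6 and 50.2 and 8.64, 5.79, 8.52 and 7.098. The neutrophil attractant Cxcl2 fell with a log2 change of -1.49, Cxcl14 with -1.50 and Cxcl16 with -0.66. Those that rose were mainly attractants of type 2 cells and Ccr1 ligands. Ccl17 was listed at 0 in all 4 untreated libraries and was at 2.85, 2.02, 2.64 and 1.79 FPKM with IL-4. Ccl24, an eosinophil attractant, was at 0.0811, 0.155, 0 and 0 and 5.46, 2.03, 6.25 and 3.499, lowest of the IL-4 libraries in replicate 2. Ccl9 went from 82.3–107 to 493–589 FPKM, Ccl6 from 230.2–321 to 669–940.0 and the platelet factor Pf4 from 102–181 to 249–324.

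Of 26 receptors for chemoattractants 12 fell (46.2%) and 4 rose (15.4%), against 26.1% and 12.5% of all genes. Their median was -0.27, and -0.15 without IL-4 replicate 2. The formyl peptide receptors Fpr1 and Fpr2 changed by log2 -1.59 and -1.44, the chemokine receptors Cxcr3 and Cx3cr1 by -1.52 and -1.23, and the sphingosine phosphate receptor S1pr1 by -1.38. Fpr1 went from 2.41, 1.88, 2.0998 and 2.32 FPKM to 0.0951, 0, 0 and 0.127, and Cx3cr1 from 1.44, 1.501, 1.16 and 1.49 to 0.0141, 0.00605, 0.0316 and 0.0299, so both were near or at 0 after IL-4. C5ar1, the receptor for complement C5a, was at 23.3, 27.4, 256 and 214 FPKM untreated and 18.5, 9.12, 14.2 and 18.1 with IL-4. Its untreated libraries fell into a low and a high pair, and the call (log2 change -2.35, adjusted p = 0.04) was lost with median-ratio scaling, without untreated replicate 3 or 4 and without any 1 IL-4 replicate. The adenosine receptor Adora2b rose from 0.943–1.43 to 3.999–4.68 FPKM and Ccr1 from 17.5–20.8 to 29.6–38.6.

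Antigen presentation genes rose. On the class II list 12 of 14 tested members rose and limma called 0 lower (0 also at an unadjusted p under 0.05), with a median log2 change of 0.91. Cd74, the invariant chain that guides class II molecules through the cell, was at 76.7, 50.5, 151 and 65.6 FPKM untreated and 1012, 437, 907 and 590.4 with IL-4. H2-Ab1, a class II chain, was at 29.3, 17.3, 35.2 and 23.8 and 259, 85.4, 234 and 131. In both, IL-4 replicates 1 and 3 were highest and replicate 2 lowest. The lowest IL-4 value still lay above the highest untreated one, as the choice of the largest rises required. Ciita, the transactivator of class II genes, followed the same order with 0.621, 0.403, 0.806 and 0.526 and 8.46, 2.74, 7.77 and 5.11 FPKM (log2 change 2.06, adjusted p = 0.000311), and so did H2-Aa, H2-Eb1 and the peptide loader H2-DMa, at 214, 68.6, 207 and 110.5, 232, 79.9, 213 and 115 and 75.1, 38.6, 72.5 and 60.1 FPKM with IL-4. In the untreated libraries of Cd74, H2-Ab1 and Ciita too, replicates 1 and 3 were highest and replicate 2 lowest. Per library, the median change over the list was 1.14, 0.75, 1.20 and 0.91 for IL-4 replicates 1 to 4. For untreated replicates 1 to 4 it was 0.05, -0.11, 0.09 and -0.05. Without IL-4 replicate 2 the list median was 1.08. In these bulk samples fewer cells of a kind and less RNA per cell cannot be told apart. Of 11 dendritic cell markers listed, 2 were in the files, Batf3 and Bst2, and the other 9 are not analysed here. Their summed level was 103 to 118 FPKM without and 115 to 148 with IL-4, mostly Bst2, and its part in the class II result was not tested. For MHC class I and the immunoproteasome 13 of 22 rose and limma called 0 lower, with 1 at an unadjusted p under 0.05 and 1 called without IL-4 replicate 1 (median 0.21), led by the proteasome subunit Psmb10, from 30.8–37.2 to 75.3–100.1 FPKM.

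Of 26 co-stimulatory and inhibitory ligands and receptors 6 rose (23.1%) and 11 fell (42.3%), against 12.5% and 26.1% of all genes. Pdcd1lg2, the PD-1 ligand PD-L2, was at 0.256, 0.208, 0.392 and 0.101 FPKM untreated and 27.2, 25.7, 30.8 and 23.7 with IL-4, an even rise of log2 4.49 (SE 0.10, adjusted p = 2.76e-08). Cd274, for the related ligand PD-L1, rose from 16.5–22.4 to 53.9–62.3, and the secreted amino acid oxidase Il4i1, which depletes phenylalanine around T cells, from 0.0526–0.168 to 10.3–17.7. Havcr2, which codes for the inhibitory receptor TIM-3, fell from 8.396, 11.1, 9.83 and 10.998 to 2.17, 2.98, 2.59 and 2.67 and Cd276 with a log2 change of -1.19. Among Fc receptors the inhibitory Fcgr2b rose from 16.6, 18.2, 18.5 and 18.1 to 100.1, 93.2, 122 and 127 FPKM and the activating high-affinity receptor Fcgr1 fell from 37.6, 37.1, 36.7 and 40.8 to 13.8, 9.12, 12.2 and 10.8. Complement C3 rose by log2 2.20 to 40.3, 16.4, 36.3 and 30.2 FPKM.

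Of 46 pattern receptors and adaptors 15 fell (32.6%) and 8 rose (17.4%), near the 26.1% and 12.5% of all genes, the latter count being 5 without untreated replicate 1, IL-4 replicate 3 or IL-4 replicate 4. Cd14, the lipopolysaccharide co-receptor, was at 192, 158, 167 and 154 FPKM untreated and 39.3, 35.9, 44.7 and 35.6 with IL-4, and Tlr2, the receptor for bacterial lipoproteins, at 23.3, 20.8, 25.5 and 23.5 and 5.73, 3.93, 6.38 and 4.78. Values were tight in both groups and about 4-fold apart. The lectin Clec4d fell from the high level of 472–573 to 136–149 FPKM. The endosomal receptor Tlr8 rose by log2 0.76 and the inflammasome adaptor Pycard by 0.63. Of 26 inflammatory cytokines and acute-phase genes 16 fell and 5 rose, and their median of -0.69 was the lowest of the 52 gene lists. Tnf was at 6.88, 7.21, 7.22 and 8.26 FPKM without and 1.69, 1.304, 1.33 and 1.72 with IL-4, and Il1b at 2.29, 3.41, 2.24 and 2.14 and 0.424, 0.154, 0.272 and 0.4804. Saa3, an acute-phase protein, was at 11.7, 23.6, 9.61 and 9.46 and 0.768, 1.34, 1.61 and 1.29, with untreated replicate 2 well above the rest. Those that rose included the growth factor Igf1 (0.86), the prothrombinase Fgl2 (1.15) and the Mer ligand Pros1 (1.00).

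Of 23 genes of granule proteins and the phagocyte oxidase 13 fell and 6 rose, with a median of -0.56. The oxidase subunits moved apart. Cyba was called higher, though not with quantile normalization (adjusted p = 0.18). The oxidase subunit Cybb fell from 204–217 to 94.5–127 FPKM, and Ngp, a granule protein of neutrophil precursors, from 23.01, 18.6, 21.2 and 24.3 to 6.82, 8.46, 9.94 and 5.76. Of 15 neutrophil markers 8 were in the files, and 7 of them fell. Their summed level was 152 to 194 FPKM in the untreated and 81.0 to 109.6 in the IL-4 libraries, with S100a9 and S100a8 the most abundant, and their part in the fall of granule genes was not tested. The calcium-binding protein S100a4, in the granule list, went the other way, from 194–235 to 423–535 FPKM. Lyz2, macrophage lysozyme, fell with a log2 change of -0.40, but median-ratio scaling ended the call (adjusted p = 0.106), and under quantile normalization its value was 0.04. Of 64 interferon-stimulated genes 22 fell (34.4%) and 11 rose (17.2%), near the shares of all genes, and 16 rose without IL-4 replicate 2. Oas2 fell from 7.71–9.87 to 1.38–3.09 FPKM and Ifitm3 from 166–222 to 60.9–90.3. Gbp2, a guanylate-binding protein, rose from 4.68, 4.09, 5.45 and 5.02 to 42.6, 18.6, 40.996 and 31.8, and Usp18, a brake on interferon signalling, by log2 1.08.

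**Figure D3:**
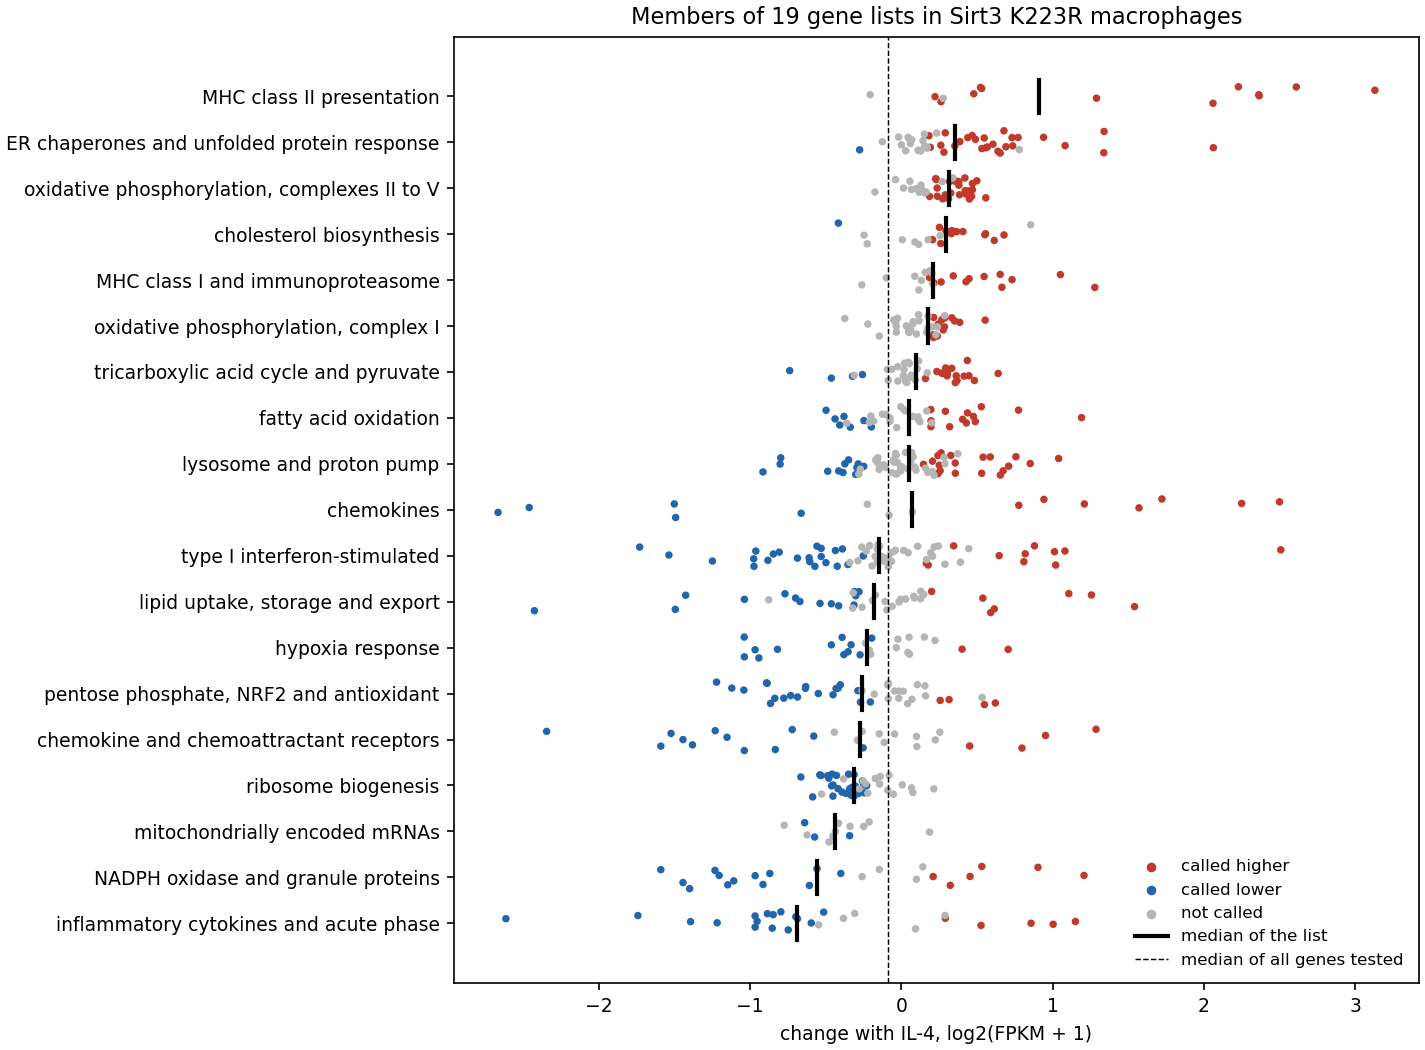
Log2 change with IL-4 of every tested member of 19 gene lists in Sirt3 K223R macrophages, with the list median (bar) and the median of all genes (-0.09, dashed). MHC class II presentation has the highest median (0.91) and inflammatory cytokines the lowest (-0.69); with quantile normalization the lysosome median turned from 0.05 to -0.04.

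Kinases and feedback regulators changed in both directions. The Csk-related kinase Matk rose from 5.94–6.66 to 15.6–20.02 FPKM, the Src-family kinase Fyn from 5.93, 5.95, 5.97 and 5.38 to 21.9, 19.3, 20.7 and 22.9 FPKM and protein kinase C delta, Prkcd, from 55.3–58.5 to 137–151. The myeloid Src-family member Fgr fell with a log2 change of -0.92. Among signal feedback genes 13 of 43 rose (30.2%) and 14 fell (32.6%), against 12.5% and 26.1% of all genes. Those that rose included the phosphatase Dusp4 (2.14), the immediate early gene Ier3 (2.36) and the kinase Pim1 (1.34). Nfkbiz and Nfkbia, regulators of NF-kappaB, fell with log2 changes of -1.43 and -0.97, and Gadd45g, a stress sensor, went from 33.9, 35.8, 34.5 and 35.5 to 7.41, 12.1, 6.3999 and 6.81 FPKM.

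Lipid handling was rearranged without a common direction. Of 38 genes of lipid uptake, storage and export 14 fell (36.8%) and 7 rose (18.4%), against 26.1% and 12.5% of all genes. Apoe, the main lipoprotein of macrophages, was at 3219.7, 2712, 2734 and 2975 FPKM untreated and 1043, 1152, 1009 and 926 with IL-4, the largest fall in absolute level after those of Fth1 and Lyz2 among the genes named here. The fatty acid carriers Fabp7 and Fabp3 fell from 53.9–67.4 to 6.94–18.04 and from 4.77–5.84 to 0.9104–1.997 FPKM, and the lipid droplet proteins Plin2 and Hilpda with log2 changes of -0.70 and -1.04. The cholesterol exporter Abcg1 rose from 60.9–72.6 to 136–152 FPKM and the desaturase Scd2 from 3.77–5.54 to 12.9–17.3. Of 23 genes of cholesterol biosynthesis 14 rose and 1, Sc5d (-0.42), fell, with a median of 0.29. Their rises were modest, such as 0.68 for Mvd, and their count was 8 without untreated replicate 3 or IL-4 replicate 4. The falls were 2 without untreated replicate 3 or IL-4 replicate 2.

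Enzymes that make prostaglandins and glycolipids changed in both directions. Hpgds, which makes prostaglandin D2, was at 34.5, 35.1, 38.5 and 36.4 FPKM untreated and 8.93, 6.73, 9.28 and 9.89 with IL-4, and Hpgd, which breaks prostaglandins down, at 24.7, 13.6, 18.95 and 15.6 and 6.57, 2.84, 3.76 and 3.71. Ptgs1, the constitutive cyclooxygenase, rose from 5.303, 3.75, 6.55 and 6.26 to 21.8, 12.7, 20.6 and 18.7 and the epoxide hydrolase Ephx1 from 32.8, 26.2, 32.2 and 26.5 to 115, 83.2, 124 and 105. The groups did not overlap in any of these 4 genes, nor did they in 40.7% of all genes tested. Hpgds and Hpgd, among the largest falls, were picked for it, and Ptgs1 and Ephx1 for a small adjusted p, which favours it. In ganglioside synthesis St3gal5, which makes GM3, fell from 25.1, 18.4, 21.8 and 23.1 to 5.02, 3.75, 3.25 and 3.34 FPKM, and B4galt6, which makes its precursor lactosylceramide, from 47.7–51.4 to 18.02–22.5. Of the 30 genes of that list 11 fell (36.7%) and 6 rose (20%), against 26.1% and 12.5% of all genes. The count of rises was 3 without untreated replicate 1 or 2 or IL-4 replicate 3 or 4.

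Nuclear genes of oxidative phosphorylation rose by small amounts while the mRNAs encoded by the mitochondrial genome did not. Of 41 genes of complexes II to V 27 rose and limma called 0 lower, also at an unadjusted p under 0.05 (median log2 change 0.31). The rises numbered 19 with quantile normalization, 33 with median-ratio scaling and 35 without IL-4 replicate 2. Sdha, of succinate dehydrogenase, was at 57.7, 56.7, 58.9 and 57.3 FPKM untreated and 72.2, 73.04, 76.1 and 74.97 with IL-4, and the ATP synthase subunit Atp5o at 33.3, 32.5, 33.4 and 31.5 and 46.4, 41.8, 51.04 and 47.4. Both moved evenly, by 0.36 and 0.50 on the log2 scale. Of 37 complex I genes 13 rose, led by Ndufa13 (0.55). Their count was 8 without untreated replicate 1 or IL-4 replicate 3 and 7 without untreated replicate 2 or 3.

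Of the 13 mitochondrially encoded mRNAs limma called 0 higher, also at an unadjusted p under 0.05, and 3 lower, mt-Nd3 (-0.64), mt-Nd1 (-0.57) and mt-Co2 (-0.34), with a median of -0.44. The 3 are 23.1% of the list, near the 26.1% of all genes called lower. mt-Nd1 was at 2097, 2055, 1922 and 1847 FPKM untreated and 1462, 850.0, 1592 and 1573 with IL-4, and replicate 2 was lowest. The list medians of the IL-4 libraries were -0.28, -1.23, -0.16 and -0.17. Without IL-4 replicate 2 the number that fell was 7 and the median -0.22, without any 1 untreated replicate it was 1, with quantile normalization 4, and with median-ratio scaling 0 were called. The share of these mRNAs in summed FPKM fell from 6.62% ± 0.309 to 5.06% ± 1.24 (SD, n = 4; exact permutation p = 0.0286), a change of -1.56 percentage points that was -0.951 without IL-4 replicate 2. Of 39 genes of the tricarboxylic acid cycle and pyruvate 16 rose and 4 fell. The largest changes were those of the pyruvate dehydrogenase phosphatase Pdp1 (0.64) and of Suclg2 (-0.74), the GDP-forming subunit of succinyl-CoA ligase. Of 38 genes of fatty acid oxidation 13 rose, led by the coactivator Ppargc1b (1.19) and the carnitine acetyltransferase Crat (0.77), and 7 fell, the transferase Cpt1a among them (-0.50). Of 37 genes of sirtuins and mitochondrial quality 4 rose (10.8%) and 7 fell (18.9%), below the 12.5% and 26.1% of all genes. Among those that fell was the mitochondrial DNA polymerase Polg (-0.70).

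Of 29 genes of glycolysis and glucose uptake 9 fell (31.0%) and 4 rose (13.8%), near the 26.1% and 12.5% of all genes. Those that fell included the phosphofructokinase Pfkl (-0.92), and the sugar transporter Slc2a6 rose from 2.04, 1.47, 1.64 and 1.39 to 10.995, 6.91, 9.56 and 9.37 FPKM. Of 24 hypoxia genes 12 fell and 2 rose, and Vegfa went from 11.8–14.1 to 5.72–6.43. Of 39 genes of the pentose phosphate path, NRF2 and antioxidant defence 20 fell and 4 rose. Sod1, the cytosolic superoxide dismutase, fell from 410.1, 369.7, 351 and 401 to 201, 209, 208 and 204 FPKM, glutathione reductase Gsr with a log2 change of -1.04 and transaldolase Taldo1 with -0.73.

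Of 23 iron and heme genes 9 fell and 5 rose, the latter count being 3 without untreated replicate 1 or 3. The transferrin receptor Tfrc rose from 20.3, 21.8, 23.6 and 26.1 to 135, 101, 117 and 120.5 FPKM and the iron exporter Slc40a1 fell from 67.9, 52.3, 65.4 and 64.1 to 21.3, 16.05, 17.9 and 20.4. The phagosomal metal transporter Slc11a1 fell with a log2 change of -0.91. Fth1, the ferritin heavy chain and the most abundant of these, was at 15988, 14784, 13447 and 15832 and 9174, 11508, 8341 and 8507 FPKM (log2 change -0.69), and its call was lost with quantile normalization (-0.0433, adjusted p = 0.651). For the light chain Ftl1 no call was made (log2 change 0.16, adjusted p = 0.466), and its sign turned with quantile normalization (-0.32). Around arginase, the arginine importer Slc7a2 rose from 0.595, 0.667, 0.858 and 0.571 to 9.24, 6.45, 9.13 and 8.66 FPKM and argininosuccinate synthase Ass1 from 3.65–5.07 to 9.59–13.3. The importer Slc7a8 of large neutral amino acids fell from 43.5, 45.3, 47.7 and 45.8 to 16.1, 12.2, 10.4 and 13.03.

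Protein folding genes of the endoplasmic reticulum rose together, and genes of ribosome assembly fell together. Of 45 ER chaperones and genes of the unfolded protein response 27 rose and 1, the sensor Atf6 (-0.28), fell, with a median of 0.35. Without IL-4 replicate 2 the rises numbered 32. Atf6 was no longer called with median-ratio scaling, quantile normalization or without untreated replicate 2 or 3. Pdia4, a disulfide isomerase, was at 34.5, 34.1, 37.4 and 34.3 FPKM untreated and 137, 160.4, 156 and 147 with IL-4, and the BiP co-factor Sdf2l1 at 67.4, 63.5, 67.99 and 67.01 and 170.0, 171, 174 and 163. Replicates were even in both groups, and log2 changes were 2.06 (SE 0.06, adjusted p = 1.39e-07) and 1.34 (SE 0.05, adjusted p = 2.74e-07). Creld2 and Pdia6, of the same folding machinery, rose by 1.08 and 0.94.

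In ribosome biogenesis 30 of 46 genes fell and limma called 0 higher, with 1 at an unadjusted p under 0.05 and 1 called without IL-4 replicate 1 (median -0.31). The falls numbered 20 with median-ratio scaling, under which 2 rose, and 23 with quantile normalization, under which 1 rose. Polr1a, the largest subunit of RNA polymerase I, was at 2.703, 2.798, 2.67 and 3.28 FPKM untreated and 1.67, 1.36, 1.36 and 1.35 with IL-4, the nucleolar GTPase Gnl3 at 4.5003, 5.14, 4.78 and 4.93 and 2.77, 2.82, 3.06 and 2.901, and the processing factor Wdr43 at 12.4, 12.9, 13.3 and 12.3 and 7.96, 8.76, 8.51 and 8.701. All IL-4 values of these 3 genes lay below all untreated ones, which held for 27.9% of all genes tested. The 3 were named for their small adjusted p, so their separation is no result. The list medians of the IL-4 libraries were close together, at -0.30, -0.31, -0.31 and -0.33. Of the 81 genes of cytosolic ribosomal proteins 16 rose and limma called 0 lower, also at an unadjusted p under 0.05, with a median of 0.09, but with quantile normalization 4 rose and 7 fell and the median was -0.06. The 16 were 7 without untreated replicate 3 and 9 without untreated replicate 2, untreated replicate 4 or IL-4 replicate 4. Of 50 splicing factors 19 fell (38%) and 2 rose (4%), against 26.1% and 12.5% of all genes. The falls were 10 without IL-4 replicate 4, 11 without untreated replicate 3 and 12 without untreated replicate 1. The rises were 4 without IL-4 replicate 2.

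**Figure D4:**
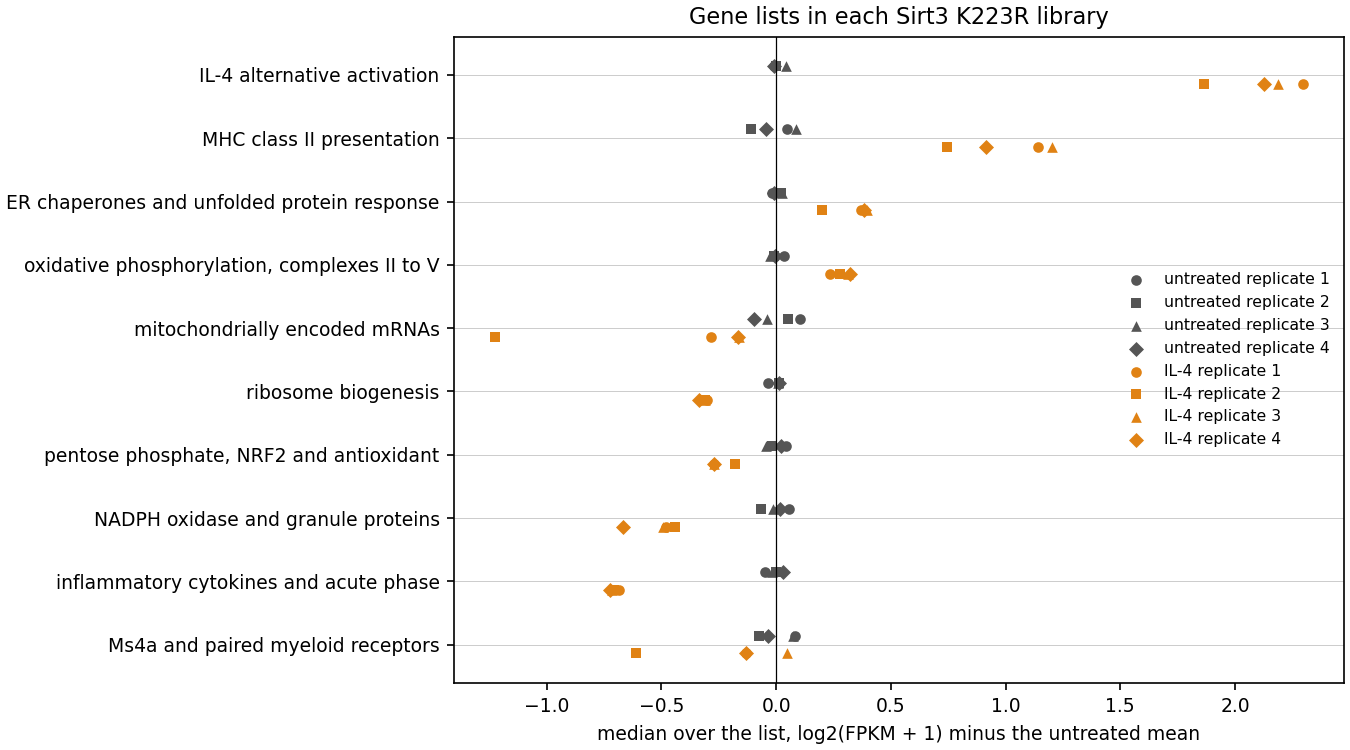
Median over the members of 10 gene lists in each Sirt3 K223R library, as log2(FPKM + 1) minus the untreated mean. IL-4 replicate 2 (orange square) lies apart for mitochondrially encoded mRNAs, at -1.23 against -0.28 to -0.16, and is the lowest for MHC class II at 0.75, while ribosome biogenesis is even at -0.30 to -0.33.

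Of 35 integrin and adhesion genes 11 rose and 11 fell (31.4% each), against 12.5% and 26.1% of all genes. Itgax, the CD11c chain, rose from 70.2, 105, 75.4 and 78.99 to 388, 389, 379 and 402 FPKM and Itgb3, the beta chain of the vitronectin receptor, from 1.18, 2.34, 1.41 and 1.595 to 8.76, 11.7, 8.701 and 9.35. The lymphocyte-type chain Itgal fell from 18.3–19.9 to 4.85–7.48, Itga6 from 7.896–9.33 to 2.11–3.21 and the adhesion receptor Vcam1 from 6.35–9.398 to 1.35–1.97. Of 48 matrix and protease genes 17 rose and 17 fell. The metalloproteinase Mmp19 and the inhibitor Timp2 rose by log2 1.25 and 0.84, and urokinase Plau fell with a log2 change of -1.58. Ocstamp, a protein needed for macrophage fusion, rose from at most 0.0988 FPKM to 6.02, 5.93, 8.18 and 7.63. Flt1, a VEGF receptor, rose from at most 0.0809 to 5.19, 2.71, 4.19 and 3.804.

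A set of 10 gene models, 9 of them with a proper symbol, went from under 1 FPKM in each untreated library to over 5 in each IL-4 library. The named ones were Slc7a2, Pdcd1lg2, Irf4, Lipn, Ocstamp, Mgl2, Apol7c, Chil4 and Il4i1, and 1 model without a symbol did the reverse. Neighbouring genes changed by at least 2-fold in the same direction in 9 runs of 3 or more adjacent tested genes. The coagulation factors F7 and F10 lay beside Mcf2l on chromosome 8, 12873806 to 13056676, and stood at 21.9, 29.9, 23.3 and 22.7 and 10.9, 14.8, 13.1 and 13.6 FPKM untreated and 107, 118, 111 and 97.8 and 50.6, 55.3, 56.1 and 48.6 with IL-4. The cytokine receptor chain Il6st lay beside Il31ra and the helicase gene Ddx4 on chromosome 13, 112464070 to 112652475, with log2 changes of 1.89, 1.41 and 2.39. Gatm, which makes the creatine precursor, and the zinc transporter Slc30a4 rose on chromosome 2 by 2.27 and 2.02. Falling runs held Apoc1 and Apoe on chromosome 7, Sema4d and Gadd45g on chromosome 13, and the paired receptors Pilra, Pilrb1 and Pilrb2 on chromosome 5. Sirpb1a, Sirpb1b and Sirpb1c on chromosome 3 fell with log2 changes of -1.73, -1.53 and -1.72. Reads of the Pilrb, Sirpb1 and histone genes can be shared among near-identical copies, so those runs are uncertain. The remaining runs were the class II genes H2-Ab1, H2-Aa and H2-Eb1 on chromosome 17 and 3 histone genes, Hist2h3c2, Hist2h2aa2 and Hist2h2aa1, on chromosome 3.

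The response was compared with that of wild-type macrophages by the interaction term of a limma fit to all 16 libraries. Of 9891 genes, 77 changed more upwards in Sirt3 K223R (0.778%) and 135 more downwards (1.36%). Before IL-4 limma called 0 genes between the genotypes, with 737 at an unadjusted p under 0.05, and after IL-4 it called 1487. The higher count was 49 and 46 without wild-type IL-4 replicate 3 and 4, 45 and 51 without untreated Sirt3 K223R replicate 2 and 4, 137 without Sirt3 K223R IL-4 replicate 2 and 40 without replicate 3. The lower count was 81 and 85 without the same wild-type libraries, 67 and 77 without untreated Sirt3 K223R replicates 2 and 3, and 207 and 76 without Sirt3 K223R IL-4 replicates 2 and 3. Files of the 2 genotypes differ in layout, with an extra annotation column for Sirt3 K223R, and any difference in processing between them cannot be told apart from genotype.

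Genes that rose further in Sirt3 K223R included Chil4, with a log2 change of 1.85 in wild type and 4.12 in Sirt3 K223R (difference 2.27, SE 0.17, adjusted p = 1.08e-05), and Fn1, with 2.69 and 4.89 (difference 2.20, adjusted p = 0.00436). Klf2 changed by 0.29 in wild type and 1.64 in Sirt3 K223R (adjusted p of the difference 0.000135). Tuba8, a tubulin, and Aldh1a2, which makes retinoic acid, were listed at or near 0 untreated and reached 2.57, 1.62, 2.83 and 1.93 and 3.24, 1.95, 4.83 and 3.71 FPKM, with differences of 1.28 and 1.19. Genes that fell further in Sirt3 K223R included Slc7a8 (-0.68 and -1.76), St3gal5 (-1.20 and -2.26) and Havcr2 (-0.65 and -1.62). For Id2, Fgr and Mapk1ip1 the wild-type changes were 0.03, 0.08 and -0.09, against -1.03, -0.92 and -1.28. The difference for Chil3 (1.38, adjusted p = 0.0488) was lost under 16 other settings, with adjusted p up to 0.123. Those for Gbp2, Fabp7, Tmeff1 and Ccl24 were lost under 14, 11, 10 and 9 settings and those for Ear2 and Plau under 6. That for Mgl2 was lost with a pseudocount of 0.1 (adjusted p = 0.148) and that for Ccl4 without untreated Sirt3 K223R replicate 2. For Arg1, Mrc1, Nfil3 and Fcgr2b the difference was 0.22, 0.05, -0.00 and 0.02 and was not called (adjusted p = 0.816, 0.927, 0.992 and 0.958).

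**Figure D5:**
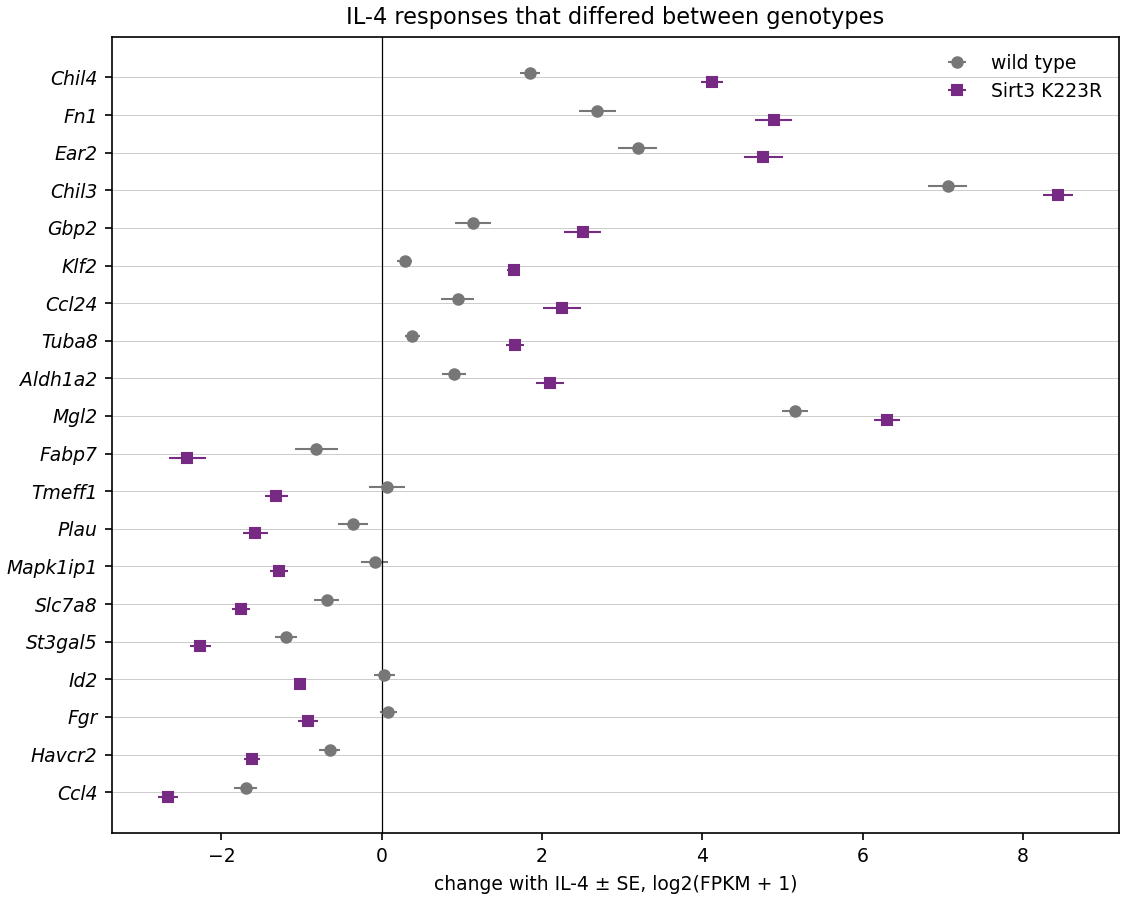
Log2 change with IL-4 ± SE in wild-type (grey circles, fit to 16 libraries) and Sirt3 K223R macrophages (purple squares, fit to 8 libraries) for 20 genes whose response differed. Id2, Fgr, Tmeff1 and Mapk1ip1 lie near 0 in wild type and at or below -0.92 in Sirt3 K223R.

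Ribosome biogenesis held the most differences of the lists counted. Of its 46 genes, 14 had a lower response in Sirt3 K223R than in wild type, against 1.36% of all genes. The median log2 change of the list was 0.02 in wild type and -0.31 in Sirt3 K223R. Gnl3 changed by 0.04 in wild type and -0.59 in Sirt3 K223R (difference -0.63, SE 0.10, adjusted p = 0.00559). For Wdr43 the changes were -0.06 and -0.53 (adjusted p of the difference 0.00372), and for Polr1a -0.22 and -0.66 (0.0314). The count of 14 was 13 with median-ratio scaling, 12 with quantile normalization, 9 for genes with a value of at least 5, 10 without Sirt3 K223R IL-4 replicate 3 and 18 without IL-4 replicate 2. Among ER chaperones 4 genes rose more in Sirt3 K223R, Pdia4, Sdf2l1 and Ddost among them, with differences of 0.51, 0.56 and 0.32. That count was 7 with median-ratio scaling, 6 without Sirt3 K223R IL-4 replicate 2, 2 with the replicate block, and 2 without wild-type untreated replicate 3 or 4, wild-type IL-4 replicate 3 or 4, Sirt3 K223R untreated replicate 1 or 4, or Sirt3 K223R IL-4 replicate 3 or 4. For complexes II to V of oxidative phosphorylation limma called 0 of 41 responses different, with 3 higher and 1 lower at an unadjusted p under 0.05.

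Marker genes of macrophages and of other cells gave the following summed levels. The summed level of 19 macrophage marker identifiers was 21627 to 24701 FPKM untreated and 21137 to 24128 with IL-4. It was mostly Lyz2 (means 12160 and 9231) and Ctss (4042 and 5866), which moved in opposite directions. Of the 19, limma called 4 higher and 6 lower, Cd14 (168 and 38.9) and Fcgr1 (38.1 and 11.5) among the latter. Monocyte markers went from 16.2 to 30.2 FPKM untreated to 6057 to 6868 with IL-4, nearly all from Chil3. T and NK cell markers stood at 100.3 to 114.4 and 83.9 to 88.1 FPKM, nearly all from Il7r. Erythroid and megakaryocyte markers, nearly all Pf4, were at 102 to 181 and 249.9 to 325.5. Eosinophil, basophil and mast cell markers were at 15.1 to 17.0 and 11.3 to 13.4, stromal markers at 6.42 to 7.61 and 2.96 to 4.13, and the B cell marker Cd79b at 1.36 or less. Their part in the changes above was not tested.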

How the data were processed

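The deposited files hold 1 value per gene for each of 16 RNA libraries. Their headers name no unit, and the values were taken as FPKM made by the authors, since they are not whole numbers and all libraries had similar sums, though TPM of a larger gene set would look alike. Per the labels' protocols the libraries were stranded, sequenced for 150 cycles from both ends, and made from poly(A) RNA or, alternatively, rRNA-depleted RNA, without saying which for which library. The aligner, the counting and its strand setting are not given in the sources used. Coordinates equalled those of GRCm38 for 9510 of 9510 identifiers of the same version. Low values were not whole multiples of 1 read, so the depth is unknown and no count test was run.

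Genes with a value of at least 1 in at least 4 of the 8 Sirt3 K223R libraries were tested on log2(FPKM + 1) with limma 3.58.1 (R 4.3.3), with a mean-variance trend and Benjamini-Hochberg adjustment over all 9671 genes. Adding 1 understates the change of low genes. The difference from wild type was the interaction term in a fit to 16 libraries. Genes were called at an adjusted p under 0.05. In simulated data of 9671 genes, 71.6%, 95.5% and 100% of changes of log2 0.5, 1 and 2 were recovered, with 7 false calls. For the interaction term the shares were 46.3%, 95.5% and 98.5%. Only 67, 67 and 66 genes were changed, all with a mean log2 level above 1. The noise was normal and independent, without an outlying library or a shift in scaling, so these rates may not hold for the real libraries. Single values were compared by 2-sided exact permutation. Python 3.11.15, pandas 2.3.3, numpy 2.4.6, scipy 1.17.1 and matplotlib 3.10.9 were used.

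Genes named are the 30 largest called rises and 30 largest falls with a proper symbol, a group mean of at least 1 and no overlap, and up to 5 called members per direction with the smallest adjusted p in each of 52 gene lists. Further ones are Sirt3, Arg1, Chil3, Retnla and Mrc1, genes switched on or off, the 10 largest genotype differences each way, the 10 highest genes per group, runs of neighbours and genes with a value apart from its group. The members and lists were chosen with earlier results of these data known. Alternatives were other pseudocounts (0.1 and 0.5), filters and scalings, a fit without the trend, the replicate number as a block, a fit to all 16 libraries and leaving out each library.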

Additional observations from a re-analysis of the deposited data

Results flagged for a closer look

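A value of 1 library stood far from the other 3 of its group in 6 of 126 groups of 4 libraries, where chance flags about 1 in 20. With IL-4, replicate 2 was low for Chil3 at 6055 FPKM and high for Chil4 at 23.1. Ctla2b at 2.77 and Smad6 at 0.743 FPKM were the values apart among the IL-4 libraries. Untreated, Ear2 at 23.8 FPKM and Saa3 at 23.6 stood above the rest of their groups.

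The IL-4 response differed between the genotypes by the interaction term of limma for the following genes, as the log2 change in Sirt3 K223R minus that in wild type. It was higher in Sirt3 K223R by 2.27 for Chil4, 2.20 for Fn1, 1.57 for Ear2, 1.38 for Chil3 and 1.37 for Gbp2. It was also higher by 1.36 for Klf2, 1.30 for Ccl24, 1.28 for Tuba8, 1.19 for Aldh1a2 and 1.15 for Mgl2. It was lower for the other genes, at -1.61 for Fabp7, -1.38 for Tmeff1, -1.21 for Plau, -1.19 for Mapk1ip1 and -1.07 for both Slc7a8 and St3gal5. For Id2 it was -1.06, for Fgr -1.01, and for Havcr2 and Ccl4 -0.97.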

How the results depend on the processing

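Over 17 other settings, 46 of the 463 called among the named genes lost their call at least once. The sign turned for Lyz2 with quantile normalization (0.0433), for Ftl1 with quantile normalization (-0.319) and for Ctsb with it (-0.0471). Without IL-4 replicate 2 it turned for Ftl1 (-0.00687) and Ctsb (-0.0404), whose values without 1 library ranged from there to 0.271 and 0.0767. Genes called lower numbered 1563 with a filter at 5 FPKM and 1580 with median-ratio scaling, and falls of at least 2-fold numbered 315 with a pseudocount of 0.1. Genes with a higher response in Sirt3 K223R numbered 134 with median-ratio scaling and 130 with the replicate block. The replicate block gave 1130 higher and 2318 lower calls for IL-4. Same-numbered libraries correlated at 0.0638, 0.0894, 0.122 and -0.0620 in their deviations. Untreated replicates 1 to 3 but not 4 correlated best with their own number. With 4 libraries per group these values cannot decide whether equal numbers mark a shared source, and the main fit took no pairs. For the level of Sirt3 median-ratio scaling gave a difference of -0.12 FPKM (exact permutation p = 0.171).

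Leaving out 1 library gave 1039 to 1446 genes higher, 2014 to 2730 lower, 208 to 226 rises and 183 to 199 falls of at least 2-fold. It gave 40 to 137 higher and 67 to 207 lower responses in Sirt3 K223R. The difference in Sirt3 level, -0.23 FPKM with all libraries, ranged from -0.28 to -0.18 FPKM, that of the mitochondrially encoded share from -1.83 to -0.951 percentage points and that of the share of the 10 highest genes from -0.900 to 0.365 percentage points. The causes were not tested. The unknown depth limits what can be said of genes near 0.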

Other observations

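Further groups in Sirt3 K223R macrophages changed without a common direction. Of 32 Ms4a and paired myeloid receptors 12 rose (37.5%) and 13 fell (40.6%), against 12.5% and 26.1% of all genes. Ms4a4a rose from 35.3, 34.6, 47.01 and 42.6 to 199.8, 183, 215 and 189.5 FPKM, and the glycoprotein Cd52 from 179–203 to 369.7–538. In apoptotic cell clearance 8 of 28 rose (28.6%) and 11 fell (39.3%). The scavenger receptor Stab1 changed by log2 -1.27 and its relative Stab2 by 1.03, and the receptor kinase Axl fell from 17.2, 19.2, 23.03 and 20.3 to 8.09, 8.795, 9.097 and 7.301 FPKM. Of 37 CSF receptor and growth genes 10 rose (27.0%) and 12 fell (32.4%), against 12.5% and 26.1% of all genes. Il27ra rose by 1.68 and Il17ra changed by -1.32.

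Of 36 apoptosis regulators 9 rose (25%) and 9 fell (25%), against 12.5% and 26.1% of all genes. The necroptosis kinase Ripk3 rose from 3.99–4.47 to 10.6–14.8 FPKM and the executioner caspase Casp6 by log2 0.99, while the survival gene Bcl2l1 changed by -0.67. Of 52 genes of the cell cycle and DNA replication 8 rose and 8 fell (15.4% each), the falls being 4 without untreated replicate 2 and 5 without untreated or IL-4 replicate 4. The inhibitor Cdkn1a rose from 90.2–100.4 to 148–189 FPKM, and Cdkn1c fell from 8.31–12.4 to 2.89–6.45. Of 48 genes of alpha-ketoglutarate-dependent and other chromatin enzymes 9 fell (18.8%) and 2 rose (4.17%), below the 26.1% and 12.5% of all genes. The histone demethylase Kdm6b was at a log2 change of 0.74 and the DNA methyltransferase Dnmt1 at -0.41.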
